A study of Mus musculus with 24 samples.

Results

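The unfolded protein response and the integrated stress response were followed through 39 genes, chosen by name, of 35519 genes with a count row. They comprise 14 endoplasmic reticulum (ER) chaperones and folding enzymes, 5 genes of ER-associated degradation (ERAD), 5 sensors and proximal transcription factors, 7 Atf4 targets of stress signalling and 8 Atf4 targets that supply amino acids and one-carbon units. The RNA came from mouse prostate organoids, which are epithelial cultures grown in Matrigel, and from prostate tissue. All 39 genes passed the filter on low counts in each of the 3 fits described here. They were chosen with earlier results of these data known. Their counts beside the shares of all genes are therefore a description and not a test.

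Proteins bound for secretion fold in the ER. When unfolded protein builds up there, the sensors Ire1, Perk and Atf6 raise transcription of chaperones and ERAD genes. Perk, and other kinases that sense amino acid shortage, haem shortage or viral RNA, phosphorylate the initiation factor eIF2, which lowers general protein synthesis and favours translation of Atf4 mRNA. Atf4 protein then induces genes of amino acid uptake and synthesis, and under lasting stress the proapoptotic factor Chop, encoded by Ddit3. Luminal cells of the prostate are secretory, and in human prostate cancer cells androgen receptor signalling is known to activate the Ire1 arm and to dampen the Perk arm.

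Organoids had been grown from single cells of anterior prostate lobes of 3-month-old mice labelled Brca1-/- (KO), Brca1+/- (HET) or wild type (WT), without or with dihydrotestosterone (DHT), a potent androgen. Each of these 6 organoid groups had 3 libraries. All organoids shared a medium that holds N-acetylcysteine, EGF, Noggin and R-Spondin among its additions. Anterior lobe tissue labelled KO, HET or WT was sequenced directly, with 2 libraries in each group and no age given. The title of the series sets heterozygous against complete loss of BRCA1 under androgen deprivation. The labels give neither the deleted part of Brca1 nor any Cre driver, and they do not say whether replicates were separate animals, separate cultures or 1 line per genotype. The p-values therefore measure only the spread between these libraries.

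Libraries held 11965815 to 58445041 estimated reads, and WT organoid library 1 with DHT was the smallest, with 28.1% of its reads from 1 gene, Lars2. Brca1 RNA went against the labels in part: over both media it had 9.64 to 13.1 CPM (reads of a gene scaled to the size of its library) in KO-labelled, 14.7 to 20.2 CPM in HET-labelled and 11.2 to 14.3 CPM in WT organoids. Since HET-labelled libraries held the most and the KO-labelled and WT ranges overlapped, groups are called KO-labelled and HET-labelled, and directions between them rest on the labels. All 6 basal markers exceeded 1 CPM in every organoid library, as did 4 or 5 of 10 luminal and secretory markers, while the secretory genes Pbsn and Msmb were at or near 0. CPM of marker sums, and of markers counted as above 1 CPM, were scaled to total reads alone. The 7 seminal vesicle markers summed to at most 0.0838 CPM in organoids. In tissue they summed to 131112 CPM in WT 2 and 41526 CPM in HET 1, against 2.83 to 12.3 CPM in the other 4 libraries. WT 2 and HET 1 stood apart from the other tissue libraries in this way, so results that rest on them are also given without them. In bulk RNA, fewer cells of a type and less RNA per cell cannot be told apart.

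Per length of transcript, Calr and Hspa5 were the most abundant of the 39 genes in organoids. Median levels over the 18 organoid libraries were 1041 TPM (reads scaled to transcript length and library size) for Calr, a lectin chaperone, 805 TPM for Hspa5, the Hsp70 chaperone BiP, and 697 TPM for Hsp90b1, the ER Hsp90. Among the factors, Atf4 had a median of 174 TPM and Xbp1, the target of Ire1, 146 TPM. The sensor genes were far lower, with 20.3 TPM for Eif2ak3, which encodes Perk, 15.4 TPM for Atf6 and 14.5 TPM for Ern1, which encodes Ire1. Nupr1, a stress-induced chromatin protein, led the Atf4 targets at 728 TPM, between Hspa5 and Hsp90b1. Derl3, an ERAD gene typical of secretory cells, was lowest at 0.670 TPM. Exons of 12 of the 39 genes share bases with an exon of another annotated gene, 8 of them with a protein-coding gene (Cebpb, Ddit3, Manf, Pdia3, Pdia6, Ppp1r15a, Shmt2 and Syvn1), and their values are uncertain by the reads that could belong to either gene. For Ddit3 this includes another annotated gene of the same name, which shares 105 exon bases with it on the same strand. Where a name had several entries, the entry with the most reads was used.

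Promoter windows of 300 bases, from 250 before to 50 after the annotated start, were taken from RefSeq (GRCm38.p6) for 35 of the 39 genes and are printed for 5 genes that the results below turn on, to show the elements of the ER branch and the Atf4 branch side by side. Capitals mark matches, on either strand, to the ER stress element ERSE (CCAAT, 9 bases of any kind, CCACG), ERSE-II (ATTGG, 1 base of any kind, CCACG), the UPRE core (TGACGTG) and the core of the C/EBP-ATF composite element read by Atf4 (TGATGNAA). ERSE and ERSE-II share their CCAAT and CCACG parts in different spacing.
Hspa5, chr2:34771840-34772139, plus strand: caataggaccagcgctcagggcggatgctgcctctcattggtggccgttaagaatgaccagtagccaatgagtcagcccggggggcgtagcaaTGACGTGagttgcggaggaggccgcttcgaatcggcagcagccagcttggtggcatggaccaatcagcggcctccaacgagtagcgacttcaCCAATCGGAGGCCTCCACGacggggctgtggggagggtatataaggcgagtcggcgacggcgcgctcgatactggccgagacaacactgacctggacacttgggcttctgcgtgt
Creld2, chr15:88819396-88819695, plus strand: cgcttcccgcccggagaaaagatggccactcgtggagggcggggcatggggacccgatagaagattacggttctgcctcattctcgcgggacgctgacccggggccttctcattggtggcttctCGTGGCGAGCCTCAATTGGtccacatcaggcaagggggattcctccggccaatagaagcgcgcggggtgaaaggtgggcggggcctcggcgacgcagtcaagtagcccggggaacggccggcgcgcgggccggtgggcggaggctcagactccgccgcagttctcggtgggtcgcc
Herpud1, chr8:94386179-94386478, plus strand: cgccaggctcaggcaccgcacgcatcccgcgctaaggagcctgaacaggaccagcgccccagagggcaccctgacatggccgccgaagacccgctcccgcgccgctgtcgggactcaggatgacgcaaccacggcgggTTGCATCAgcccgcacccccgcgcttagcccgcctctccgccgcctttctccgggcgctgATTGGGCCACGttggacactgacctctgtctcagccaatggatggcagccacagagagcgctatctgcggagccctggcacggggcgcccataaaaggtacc
Atf3, chr1:191183284-191183583, minus strand: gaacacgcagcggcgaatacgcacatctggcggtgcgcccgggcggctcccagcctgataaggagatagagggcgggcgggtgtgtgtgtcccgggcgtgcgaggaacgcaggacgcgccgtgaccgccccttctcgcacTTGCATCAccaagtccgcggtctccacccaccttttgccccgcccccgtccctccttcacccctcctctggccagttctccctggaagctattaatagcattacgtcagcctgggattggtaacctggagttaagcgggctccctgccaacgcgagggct
Asns, chr6:7693160-7693459, minus strand: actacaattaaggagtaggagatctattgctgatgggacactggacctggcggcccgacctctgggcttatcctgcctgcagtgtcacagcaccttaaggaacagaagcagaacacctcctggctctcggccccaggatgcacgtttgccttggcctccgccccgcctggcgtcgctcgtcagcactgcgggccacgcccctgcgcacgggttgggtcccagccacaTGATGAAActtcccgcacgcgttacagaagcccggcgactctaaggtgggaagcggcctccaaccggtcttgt
Hspa5 held the UPRE core 157 bases and ERSE 65 bases before the start, and Creld2, a folding factor of the ER, held ERSE 126 bases before it. Herpud1, an ERAD adaptor, held both kinds, the composite core 112 bases and ERSE-II 52 bases before the start. Atf3 and Asns held only the composite core, 110 and 23 bases before it.

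Over all members, ERSE was found in 9 of the 36 promoter windows of these 35 genes (25%), against 39 of all 32851 windows in the table (0.119%). These 9 were the chaperones Calr, Canx, Creld2, Dnajc3, Hsp90b1, Hspa5 and Pdia6 and the ERAD genes Derl3 and Syvn1. The composite core was found in 7 of 36 windows (19.4%), against 3.97% of all windows. It occurred in Atf3, Chac1, Nupr1 and Trib3 of the stress targets, in Asns and Slc7a11 of the supply genes, and in Herpud1. No chaperone window held it, and no Atf4 target window held ERSE. ERSE-II was in Dnajb11 and Herpud1 (5.56%, against 0.0365% of all windows), and the UPRE core in Hspa5 alone (2.78%, against 2.01%). A match is a description of letters, and its absence says only that these letters are not in the window.

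In organoids, most of the 39 genes were highest in HET-labelled and lowest in KO-labelled cultures, in both media. With DHT, the group mean was highest in HET-labelled organoids for 33 genes and lowest in KO-labelled organoids for 31. Without DHT these counts were 28 and 30. How many of all genes tested had this order of means was not counted, so these counts describe the members only. Of the 39 genes, 13 were lower in KO-labelled than in HET-labelled organoids with DHT, where 1.75% of all genes tested were lower, and 9 without it, where 1.56% were. The widest of these differences was a log2 change of -1.08, for Ddit3 with DHT.

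**Figure D1:**
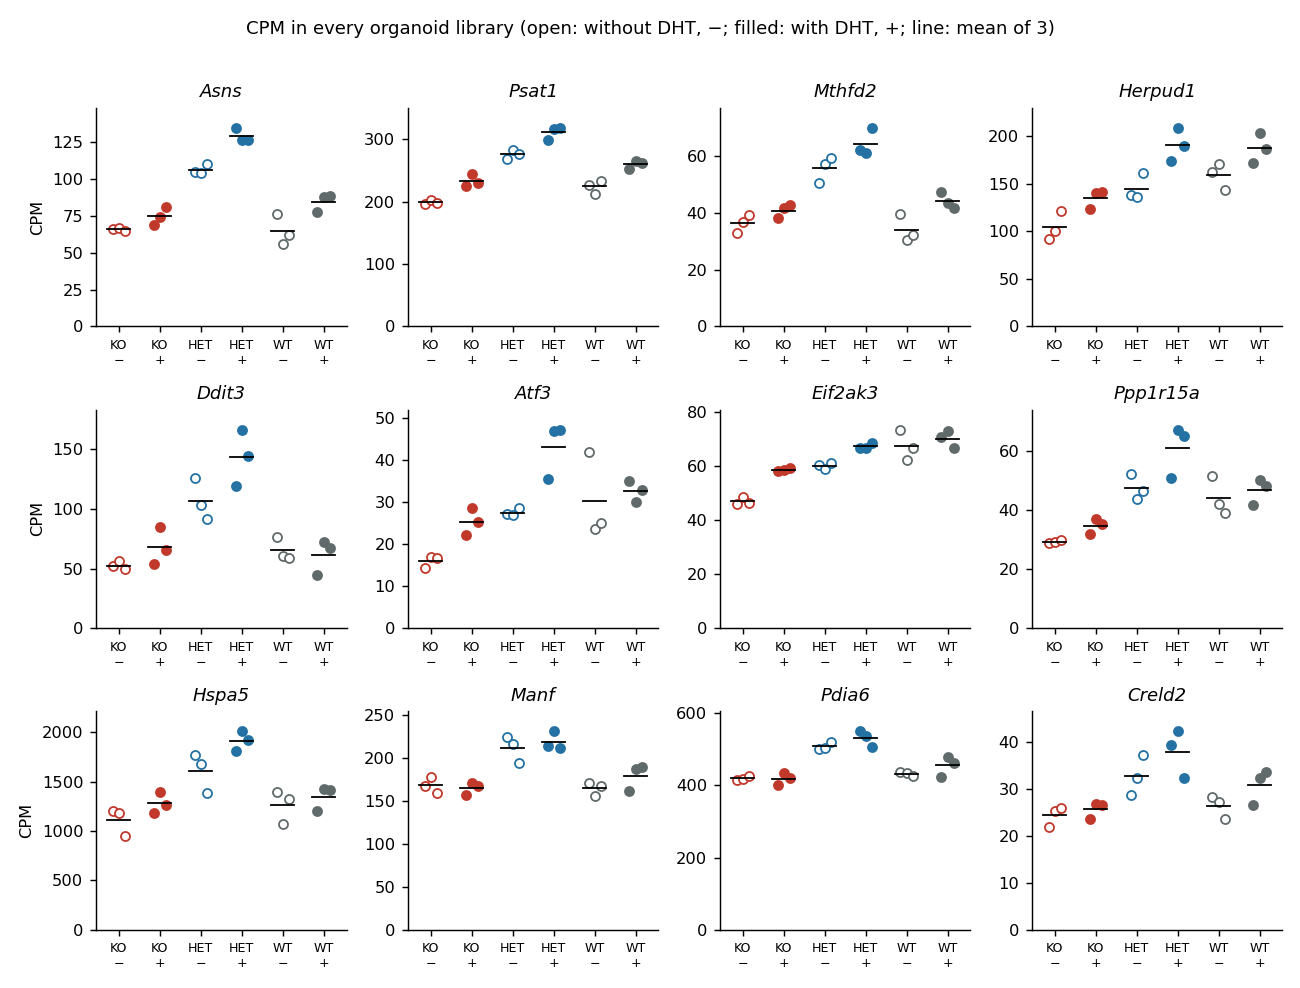
CPM of the 12 members called in the most organoid comparisons, with 1 point per library, KO-labelled left of HET-labelled left of WT, open points without DHT, filled points with DHT, and a line at the mean of 3. For Asns, all 6 HET-labelled points lie above all 12 others.

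Among the chaperones, Hspa5 (chr2:34771970-34777547) had 1187, 1392 and 1260.3 CPM in KO-labelled, 1809.8, 2011 and 1919.6 CPM in HET-labelled and 1201, 1428 and 1420.4 CPM in WT organoids with DHT. Hspa5 without DHT had 1200.5, 1181 and 951 CPM in KO-labelled, 1768, 1676 and 1387 CPM in HET-labelled and 1397, 1067 and 1328 CPM in WT organoids. With DHT, the HET-labelled libraries lay above all others, and 1 HET-labelled library without DHT fell within the WT range. Hspa5 was lower in KO-labelled than in HET-labelled organoids with DHT (-0.58 ± 0.132 in log2 units, adjusted p 0.0212 by edgeR) and without it (-0.54 ± 0.132 in log2 units, adjusted p 0.0383 by edgeR), in edgeR's quasi-likelihood F-test with Benjamini-Hochberg adjustment over all genes, where ± is the standard error (SE). It was higher in HET-labelled than in WT organoids with DHT (0.50 ± 0.132 in log2 units, adjusted p 0.0273 by edgeR), and in the medium without DHT it did not pass (0.35 ± 0.131 in log2 units, adjusted p 0.143 by edgeR).

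Manf, a secreted ER stress factor (chr9:106838312-106891979), had 156, 171 and 168 CPM in KO-labelled, 213, 231 and 212 CPM in HET-labelled and 161, 187 and 189 CPM in WT organoids with DHT. Manf without DHT had 168, 178 and 159 CPM in KO-labelled, 224, 216 and 194 CPM in HET-labelled and 171, 156 and 167 CPM in WT organoids. The HET-labelled libraries were above all KO-labelled and WT libraries in each medium. Manf fell in KO-labelled against HET-labelled organoids with DHT (-0.41 ± 0.0879 in log2 units, adjusted p 0.0157 by edgeR) and rose in HET-labelled against WT organoids without it (0.36 ± 0.0879 in log2 units, adjusted p 0.0171 by edgeR).

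Pdia6, a disulfide isomerase (chr12:17266545-17284770), had 399.7, 434 and 421 CPM in KO-labelled, 549.7, 536 and 505 CPM in HET-labelled and 424, 479 and 462 CPM in WT organoids with DHT. Pdia6 without DHT had 414, 418 and 426 CPM in KO-labelled, 501, 504 and 519.8 CPM in HET-labelled and 436, 435 and 425 CPM in WT organoids. HET-labelled libraries were again the highest, without overlap. The difference between KO-labelled and HET-labelled organoids passed the test with DHT (-0.34 ± 0.0733 in log2 units, adjusted p 0.0150 by edgeR).

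Creld2, whose window above holds ERSE (chr15:88819646-88826683), had 23.6, 26.7 and 26.7 CPM in KO-labelled, 39.3, 42.3 and 32.3 CPM in HET-labelled and 26.6, 32.3 and 33.6 CPM in WT organoids with DHT. Creld2 without DHT had 21.8, 25.4 and 25.9 CPM in KO-labelled, 28.8, 32.3 and 37.3 CPM in HET-labelled and 28.3, 27.2 and 23.6 CPM in WT organoids. KO-labelled and HET-labelled libraries did not overlap in either medium. The fall in KO-labelled organoids passed with DHT only (-0.56 ± 0.13 in log2 units, adjusted p 0.0239 by edgeR; without DHT log2 -0.43, edgeR adjusted p = 0.109). The other 10 chaperones passed no genotype test. Their changes in KO-labelled against HET-labelled organoids with DHT ran between -0.66 for Sdf2l1, part of a BiP complex, and 0.0004 for the lectin chaperone Canx.

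Of the 5 ERAD genes, Herpud1 (chr8:94386438-94395377) differed in the most comparisons. It had 123.5, 141 and 142 CPM in KO-labelled, 174, 209 and 189.9 CPM in HET-labelled and 172, 203 and 187 CPM in WT organoids with DHT. Herpud1 without DHT had 91.9, 100.2 and 122 CPM in KO-labelled, 138, 136 and 161 CPM in HET-labelled and 163, 171 and 143 CPM in WT organoids. Here HET-labelled and WT libraries overlapped, and the KO-labelled libraries lay below both in each medium. Herpud1 fell in KO-labelled against WT organoids with DHT (-0.47 ± 0.120 in log2 units, adjusted p 0.0344 by edgeR) and without it (-0.60 ± 0.120 in log2 units, adjusted p 0.00682 by edgeR). Against HET-labelled organoids its fall was log2 -0.50 with DHT and -0.47 without (edgeR adjusted p = 0.0299 and 0.0457).

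Edem1, which directs misfolded glycoproteins to degradation, fell in KO-labelled against HET-labelled organoids with DHT (-0.27 ± 0.0715 in log2 units, adjusted p 0.0485 by edgeR). Sel1l and Syvn1, the adaptor and ligase of the ERAD complex, and Derl3 passed no genotype test. Derl3 had 0.165 to 1.15 CPM over the 18 organoid libraries.

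The sensors and factors had a median change of -0.16 in KO-labelled against HET-labelled organoids with DHT, the smallest of the 5 roles. Eif2ak3 (chr6:70844515-70905245) had 58.3, 58.7 and 59.2 CPM in KO-labelled, 67.0, 66.8 and 68.5 CPM in HET-labelled and 70.8, 73.0 and 66.6 CPM in WT organoids with DHT. Eif2ak3 without DHT had 45.8, 48.7 and 46.3 CPM in KO-labelled, 60.3, 58.8 and 61.1 CPM in HET-labelled and 73.6, 62.4 and 66.6 CPM in WT organoids. The order here was WT above HET-labelled above KO-labelled without DHT, with no overlap between the groups. In that medium Eif2ak3 fell in KO-labelled against WT (-0.52 ± 0.0728 in log2 units, adjusted p 0.000318 by edgeR) and against HET-labelled organoids (-0.36 ± 0.0728 in log2 units, adjusted p 0.0132 by edgeR). With DHT its changes were log2 -0.26 and -0.20 (edgeR adjusted p = 0.0652 and 0.186).

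Atf4 fell in KO-labelled against HET-labelled organoids with DHT (-0.42 ± 0.0991 in log2 units, adjusted p 0.0283 by edgeR), where it had 167, 194 and 189.7 CPM against 233, 263 and 238 CPM. Atf6 rose in HET-labelled against WT organoids with DHT (0.27 ± 0.0781 in log2 units, adjusted p 0.0432 by edgeR), where it had 86.0, 90.7 and 94.0 CPM against 77.2, 74.0 and 72.9 CPM. Xbp1 and Ern1 passed no genotype test, and Xbp1 had 161 to 215 CPM over the 18 libraries. Its changes over the 6 genotype comparisons ran between -0.22 and -0.08.

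The largest genotype difference among the 39 genes in organoids was that of Ddit3, the gene for Chop (chr10:127290774-127296288). It had 53.4, 84.9 and 65.7 CPM in KO-labelled, 119.6, 167 and 144 CPM in HET-labelled and 44.5, 72.1 and 67.0 CPM in WT organoids with DHT. Ddit3 without DHT had 51.9, 56.0 and 49.4 CPM in KO-labelled, 126, 103 and 91.4 CPM in HET-labelled and 76.6, 60.8 and 59.0 CPM in WT organoids. Every HET-labelled library lay above every KO-labelled and WT library of its medium. Ddit3 rose in HET-labelled against WT organoids with DHT (1.22 ± 0.200 in log2 units, adjusted p 0.00118 by edgeR) and without it (0.71 ± 0.197 in log2 units, adjusted p 0.0367 by edgeR). It fell in KO-labelled against HET-labelled organoids with DHT (-1.08 ± 0.198 in log2 units, adjusted p 0.00586 by edgeR) and without it (-1.03 ± 0.199 in log2 units, adjusted p 0.00892 by edgeR). KO-labelled and WT organoids overlapped with DHT, and the change between them was 0.14 (SE 0.197) with an edgeR adjusted p of 0.901. Reads from exon bases shared with the other annotated gene named Ddit3 could belong to either.

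Atf3, a stress-induced repressor (chr1:191170296-191218039), had 22.2, 28.6 and 25.4 CPM in KO-labelled, 35.4, 46.9 and 47.3 CPM in HET-labelled and 35.0, 30.1 and 33.0 CPM in WT organoids with DHT. Atf3 without DHT had 14.3, 16.9 and 16.7 CPM in KO-labelled, 27.1, 26.9 and 28.6 CPM in HET-labelled and 41.9, 23.7 and 25.1 CPM in WT organoids. The KO-labelled libraries were the lowest in each medium, and WT library 1 without DHT stood above the other 2 of its group. Atf3 fell in KO-labelled against HET-labelled organoids with DHT (-0.77 ± 0.183 in log2 units, adjusted p 0.0282 by edgeR) and without it (-0.78 ± 0.184 in log2 units, adjusted p 0.0316 by edgeR). It also fell against WT without DHT (-0.92 ± 0.184 in log2 units, adjusted p 0.00750 by edgeR).

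Ppp1r15a, which encodes the Gadd34 subunit that brings a phosphatase back to eIF2 (chr7:45522916-45526268), had 32.0, 37.0 and 35.2 CPM in KO-labelled, 50.9, 67.3 and 65.3 CPM in HET-labelled and 41.8, 50.02 and 48.2 CPM in WT organoids with DHT. Ppp1r15a without DHT had 28.7, 29.3 and 29.9 CPM in KO-labelled, 52.3, 43.9 and 46.4 CPM in HET-labelled and 51.4, 42.0 and 38.9 CPM in WT organoids. KO-labelled libraries were the lowest in both media, without overlap. Ppp1r15a fell in KO-labelled against HET-labelled organoids with DHT (-0.82 ± 0.125 in log2 units, adjusted p 0.00150 by edgeR) and without it (-0.70 ± 0.126 in log2 units, adjusted p 0.00543 by edgeR), and against WT without DHT (-0.59 ± 0.125 in log2 units, adjusted p 0.0110 by edgeR). The other 4 stress targets passed no genotype test. In KO-labelled against HET-labelled organoids with DHT, the pseudokinase gene Trib3 changed by log2 -0.89 (edgeR adjusted p = 0.0652), the glutathione-degrading enzyme gene Chac1 by -0.71, Nupr1 by -0.60 and the transcription factor gene Cebpb by -0.16.

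Asns, the asparagine synthetase gene, whose window above holds the composite core (chr6:7675169-7693254), had 69.1, 73.9 and 81.3 CPM in KO-labelled, 135, 126 and 126 CPM in HET-labelled and 77.4, 87.9 and 88.7 CPM in WT organoids with DHT. Asns without DHT had 66.3, 67.1 and 64.5 CPM in KO-labelled, 105, 104 and 110.4 CPM in HET-labelled and 75.9, 56.2 and 61.7 CPM in WT organoids. HET-labelled libraries were higher than all others in each medium, and KO-labelled and WT libraries overlapped in each. Asns rose in HET-labelled against WT organoids with DHT (0.61 ± 0.102 in log2 units, adjusted p 0.00146 by edgeR) and without it (0.72 ± 0.102 in log2 units, adjusted p 0.000283 by edgeR). It fell in KO-labelled against HET-labelled organoids with DHT (-0.79 ± 0.102 in log2 units, adjusted p 0.000330 by edgeR) and without it (-0.69 ± 0.102 in log2 units, adjusted p 0.00128 by edgeR).

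Mthfd2, a mitochondrial folate enzyme gene (chr6:83305691-83325908), had 38.0, 41.6 and 42.7 CPM in KO-labelled, 61.9, 61.0 and 69.9 CPM in HET-labelled and 47.4, 43.4 and 41.8 CPM in WT organoids with DHT. Mthfd2 without DHT had 32.7, 36.8 and 39.2 CPM in KO-labelled, 50.6, 57.2 and 59.4 CPM in HET-labelled and 39.7, 30.5 and 32.1 CPM in WT organoids. HET-labelled libraries stood above all others of their medium. The rise in HET-labelled against WT organoids was log2 0.54 with DHT and 0.71 without (edgeR adjusted p = 0.00614 and 0.000629). The fall in KO-labelled against HET-labelled organoids was log2 -0.66 with DHT and -0.62 without (edgeR adjusted p = 0.00305 and 0.00521).

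Psat1, of the serine synthesis pathway (chr19:15904678-15947337), had 226, 245 and 230.4 CPM in KO-labelled, 298, 317 and 318 CPM in HET-labelled and 253, 266 and 262 CPM in WT organoids with DHT. Psat1 without DHT had 197, 202 and 199 CPM in KO-labelled, 269, 282 and 277 CPM in HET-labelled and 228, 213 and 233 CPM in WT organoids. The order in both media was HET-labelled above WT above KO-labelled, with no overlap between the groups. Psat1 rose in HET-labelled against WT organoids with DHT (0.26 ± 0.0695 in log2 units, adjusted p 0.0322 by edgeR) and without it (0.30 ± 0.0694 in log2 units, adjusted p 0.0125 by edgeR), and fell in KO-labelled against HET-labelled organoids with DHT (-0.41 ± 0.0695 in log2 units, adjusted p 0.00305 by edgeR) and without it (-0.47 ± 0.0695 in log2 units, adjusted p 0.00121 by edgeR). The other 5 supply genes passed no genotype test: Phgdh, the first enzyme of serine synthesis, Shmt2, which takes a one-carbon unit from serine, the cystine transporter Slc7a11, the leucine transporter Slc7a5 and its partner Slc3a2. Their changes in KO-labelled against HET-labelled organoids with DHT ran between -0.58 and -0.22.

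**Figure D2:**
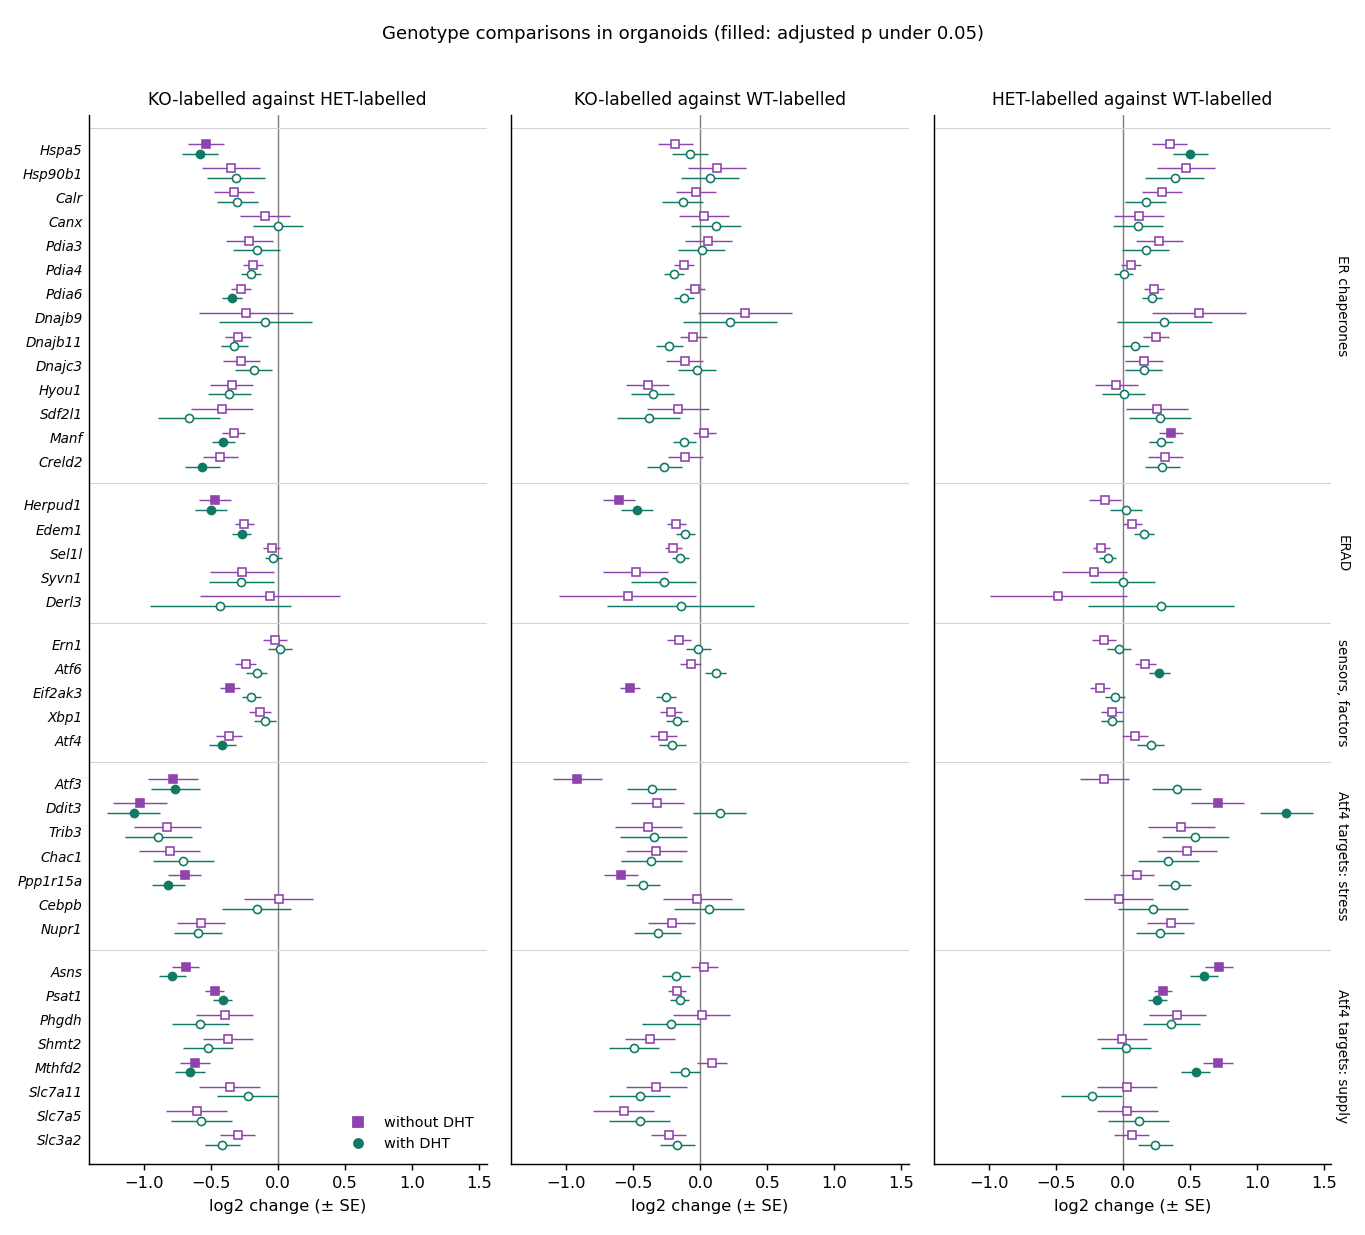
Log2 changes with standard errors of all 39 members, ordered by role, in KO-labelled against HET-labelled, KO-labelled against WT and HET-labelled against WT organoids, squares without DHT and circles with DHT, filled where the adjusted p was under 0.05. In the first panel 37 of 39 changes with DHT and 38 of 39 without it lie below 0.

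Counted over all members, 0 rose and 13 fell in KO-labelled against HET-labelled organoids with DHT, where 1.79% of all genes tested rose. Without DHT 0 rose and 9 fell, where 1.35% of all genes rose. At an unadjusted p under 0.05, 0 members rose in either medium, and 25 fell with DHT and 24 without it, where 7.02% and 6.03% of all genes fell. DESeq2 called 0 higher in either medium, and 20 lower with DHT and 17 without it. The shares of all genes that DESeq2 called are not given, here or for the comparisons below. The median change of the 39 was -0.41 with DHT and -0.35 without, against 0.01 and 2.03e-05 over all genes tested. The 2 media share no library, and 8 genes fell in both, which is 8 of the 13 and 8 of the 9. These were Asns, Atf3, Ddit3, Herpud1, Hspa5, Mthfd2, Ppp1r15a and Psat1. With DHT, 5 of the 13 calls (Asns, Ddit3, Mthfd2, Ppp1r15a and Psat1) held under all 15 alternatives, and leaving out any 1 of the 6 libraries left 5 to 9 calls. There were 5 calls without HET 2, KO 1 or KO 3, 7 without KO 2 and 8 without HET 3. Without DHT, 5 calls were left without HET 2. A fit restricted to the 2 groups of that medium called 0 of the 39, where 0.0617% of all genes rose and 0.123% fell. In that medium the 3 same-numbered KO-labelled and HET-labelled libraries deviated together (r = 0.422 to 0.870), and their mitochondrial shares ran in the same order. With the replicate number as a block in the fit of these 2 groups, 0 of the 39 rose and 33 fell, where 8.75% of all genes rose and 9.89% fell. Whether same-numbered libraries were prepared together is not stated in the labels.

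In HET-labelled against WT organoids, 6 rose and 0 fell with DHT, where 4.03% of all genes tested rose and 3.47% fell, and 5 rose and 0 fell without DHT, against 4.52% and 3.29% of all genes. Asns, Ddit3, Mthfd2 and Psat1 rose in both media, which is 4 of the 6 and 4 of the 5. Atf6 and Hspa5 rose with DHT and Manf without it. The median change of the 39 was 0.23 and 0.16. Under all 15 alternatives, Asns, Ddit3 and Mthfd2 held with DHT and Asns without it. Leaving out HET 2, HET 3 or any WT library left 3 calls with DHT. Without DHT, 3 calls were left without HET 1 or WT 3 and 2 without HET 2 or WT 2. A fit restricted to the 2 groups of that medium called 1 of the 39, where 1.88% of all genes rose and 0.85% fell. At an unadjusted p under 0.05, 0 members fell with DHT and 2, Eif2ak3 and Sel1l, without it, and DESeq2 called 0 and 1 lower.

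In KO-labelled against WT organoids, 1 gene fell with DHT (Herpud1) and 4 without it (Herpud1, Atf3, Eif2ak3 and Ppp1r15a), and 0 rose. Of all genes tested 1.58% and 1.98% fell and 2.53% and 2.83% rose, so the count with DHT was near the share of all genes. The medians of the 39 were -0.18 with DHT and -0.18 without. No call in these comparisons held under all 15 alternatives. With DHT 0 passed without the low-count filter or without any 1 library other than WT 1. Without DHT a fit restricted to the 2 groups called 0, where 0.94% of all genes rose and 0.439% fell. At an unadjusted p under 0.05, 0 members rose in either medium, and DESeq2 called 0 higher. The 3 genotype comparisons of a medium share libraries, so their values are set side by side only.

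Of the markers of other cells, the stromal ones moved with the labels. The 10 stromal markers summed to 26.3 to 44.2 CPM in KO-labelled, 10.2 to 14.5 CPM in HET-labelled and 21.5 to 33.5 CPM in WT organoids, with 1 to 3 of the 10 above 1 CPM, and Dcn made up most of the sum. The 8 leukocyte markers summed to 45.1 to 59.8 CPM, 66.7 to 101 CPM and 43.3 to 69.4 CPM in the same order of labels, with 1 of the 8, Cd68, above 1 CPM and no overlap between KO-labelled and HET-labelled sums. The 6 basal markers summed to 3856 to 6259 CPM, 3213 to 5075 CPM and 2789.7 to 5791 CPM in the same order of labels. All these sums were scaled to total reads alone. WT library 1 with DHT, where Lars2 took 28.1% of reads, gave the lowest WT sums of stromal and basal markers. The part of these markers in the genotype differences was not tested.

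In organoids without DHT, the share of reads from mitochondrial genes differed between the libraries of a group, at 10.01%, 4.17% and 2.61% in KO-labelled and 9.43%, 4.54% and 2.42% in HET-labelled organoids, and a set of members followed it. In both groups 10 members were highest in the library with the largest share and lowest in that with the smallest. They were Hspa5, Hsp90b1, Calr, Canx, Pdia3, Dnajb9, Dnajb11 and Dnajc3 of the chaperones, with Atf6 and Slc7a11. Another 13 ran the opposite way in both groups, among them Hyou1, Sdf2l1, Syvn1, Atf4, Trib3, Phgdh, Shmt2 and Slc7a5, and the other 16 had no shared order. Whether the members follow this share more often than other genes was not counted. Dnajb9, a cochaperone that restrains Ire1, had 126, 76.0 and 45.8 CPM in KO-labelled and 154, 86.0 and 51.9 CPM in HET-labelled organoids without DHT. Slc7a5 had 67.4, 85.5 and 126 CPM and 105, 125 and 195 CPM in the same libraries. The libraries of a group thus spread along this share in opposite directions for the 2 genes. Replicate number and read totals ran in the same order as the falling share. The totals were 25233980, 46652143 and 46745248 reads in KO-labelled and 29409564, 42857639 and 58445041 reads in HET-labelled organoids without DHT. The order along the share therefore cannot be told apart from the order by replicate number or by reads. With the mitochondrial share as a covariate, 27 of 39 members fell in KO-labelled against HET-labelled organoids in each medium, where 5.3% of all genes fell with DHT and 4.72% without. In HET-labelled against WT organoids 15 rose with DHT and 11 without in that fit, where 9.17% and 7.73% of all genes rose.

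For DHT withdrawal within a genotype label, 0 of 39 members passed the edgeR test in KO-labelled, HET-labelled or WT organoids, where 0.557%, 0.707% and 1.3% of all genes tested were called. At an unadjusted p under 0.05 there were 5 members in KO-labelled, 9 in HET-labelled and 4 in WT organoids, which is to be read against 7.03%, 8.39% and 8.07% of all genes. DESeq2 called 3 members in each label, and all 9 of these calls were lower without DHT. Averaged over the 3 labels, 6 members fell and 0 rose, where 2.4% of all genes fell and 2.56% rose. With p unadjusted, 3 members rose (Cebpb, Ern1 and Slc7a11) and 11 fell under 0.05, where 8.41% and 7.01% of all genes did, and DESeq2 called 1 higher and 8 lower. The 6 that fell in edgeR were Herpud1, Eif2ak3, Atf3 and the supply genes Asns, Psat1 and Mthfd2.

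Herpud1 fell on average over the labels (-0.33 ± 0.0690 in log2 units, adjusted p 0.00829 by edgeR), with changes of -0.37 in KO-labelled, -0.40 in HET-labelled and -0.24 in WT organoids. Atf3 changed by -0.67 in KO-labelled, -0.65 in HET-labelled and -0.11 in WT organoids (average -0.48 ± 0.106 in log2 units, adjusted p 0.0135 by edgeR). The average of Asns was -0.28 ± 0.0588 in log2 units, adjusted p 0.00840 by edgeR, that of Psat1 -0.21 ± 0.0401 in log2 units, adjusted p 0.00541 by edgeR and that of Mthfd2 -0.25 ± 0.0638 in log2 units, adjusted p 0.0336 by edgeR. All 3 of these were below 0 within every label. Eif2ak3 changed by -0.32 in KO-labelled, -0.17 in HET-labelled and -0.05 in WT organoids (average -0.18 ± 0.0419 in log2 units, adjusted p 0.0179 by edgeR). Asns, Herpud1 and Psat1 held under all 26 alternatives.

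No chaperone passed in any of these withdrawal tests. Their average changes ran between -0.18 for Hspa5 and 0.18 for Dnajb9, with a median of -0.05, while the Atf4 targets of stress signalling had a median of -0.23 and those of supply one of -0.15. The median over all genes tested was 0.02. Cebpb at 0.42 (SE 0.150) and Slc7a11 at 0.36 (SE 0.132) were the most positive of the Atf4 targets, with edgeR adjusted p of 0.147 and 0.162. Ern1 was at 0.16 (SE 0.0519), edgeR adjusted p = 0.0946, and Xbp1 at -0.01 (SE 0.0474).

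**Figure D3:**
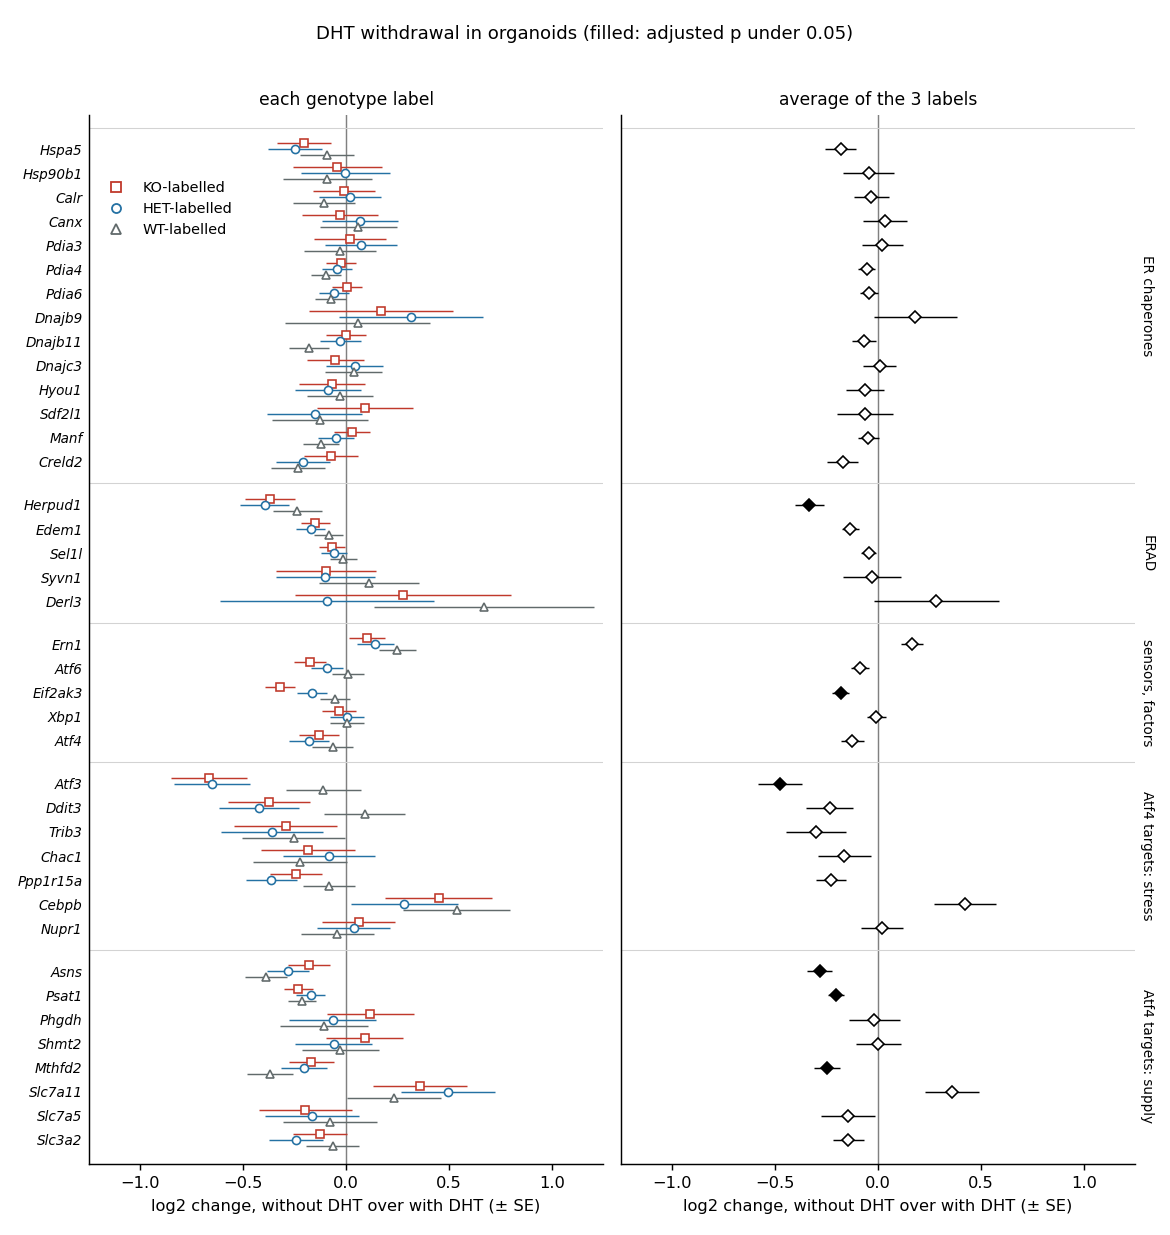
Log2 changes without DHT over with DHT, with standard errors, of all 39 members in KO-labelled (squares), HET-labelled (circles) and WT organoids (triangles) at left and averaged over the 3 labels at right, filled where the adjusted p was under 0.05. The 6 filled points at right are Herpud1, Eif2ak3, Atf3, Asns, Psat1 and Mthfd2, all below 0.

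Whether the withdrawal response depended on the label was tested directly. In edgeR 0 of 39 members passed in KO-labelled against HET-labelled, KO-labelled against WT or HET-labelled against WT organoids, and 0 of all 15427 genes did. At an unadjusted p under 0.05 there were 2 members, Atf3 and Eif2ak3, both more negative in KO-labelled than in WT organoids, and 151, 417 and 433 of all genes in the 3 comparisons. DESeq2 also called 0 members. For Atf3 the difference in response between KO-labelled and WT organoids was -0.56 (SE 0.259), edgeR adjusted p = 1, and for Eif2ak3 it was -0.27 (SE 0.103), edgeR adjusted p = 1.

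Chaperones and Atf4 targets were set against each other by their mean log2 CPM in every library, as a description with no test. The chaperone mean minus the Atf4 target mean was 1.96 ± 0.0499 in KO-labelled, 1.67 ± 0.0366 in HET-labelled and 1.81 ± 0.0367 in WT organoids with DHT (SD, n = 3 each). Without DHT it was 2.05 ± 0.325, 1.78 ± 0.284 and 1.82 ± 0.192 in the same order of labels. With DHT the 3 labels did not overlap, and without it they did. In KO-labelled against HET-labelled organoids with DHT, the median change was -0.32 for the 14 chaperones and -0.60 for the 15 Atf4 targets, with 4 and 6 of them lower. Without DHT the medians were -0.31 and -0.61, with 1 and 6 lower. Tissue had differences of 3.73 in KO-labelled, 3.66 in HET-labelled and 3.97 in WT libraries (mean, n = 2 each). In HET-labelled against WT organoids with DHT the medians were 0.20 and 0.34, with 1 and 4 higher.

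**Figure D4:**
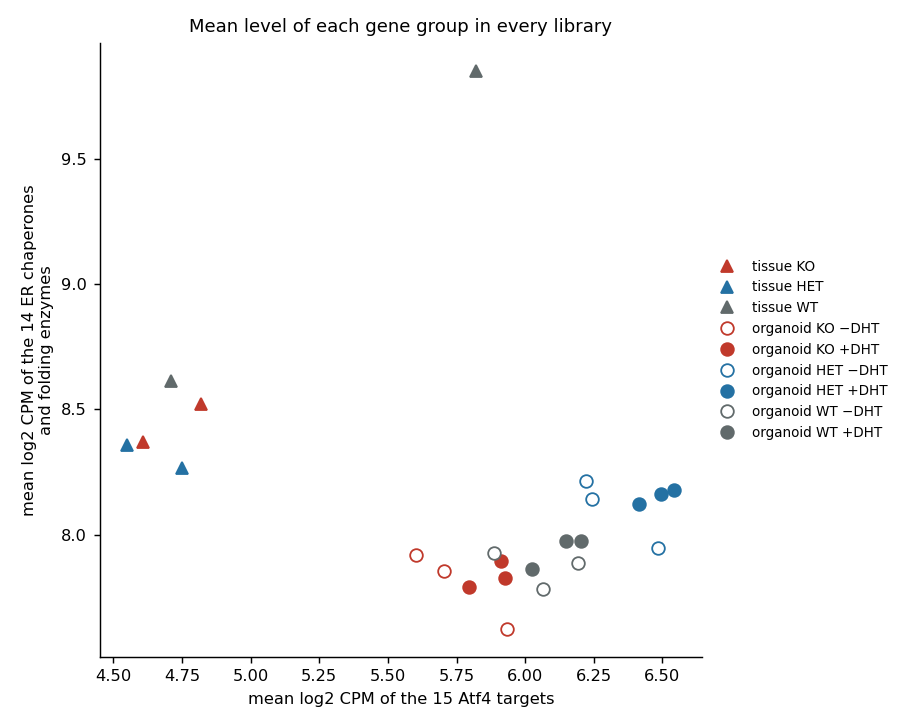
Mean log2 CPM of the 15 Atf4 targets (x axis) against that of the 14 ER chaperones and folding enzymes (y axis) in each of the 24 libraries, triangles for tissue, open circles for organoids without DHT and filled circles for organoids with DHT, coloured by label. All 6 tissue libraries lie above the organoids and 5 lie left of them, and tissue WT 2 stands apart at top.

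Between genotype labels in tissue, 0 of 39 members and 0 of all 16753 genes tested passed in edgeR in any of the 3 comparisons, and DESeq2 called 0 members. At an unadjusted p under 0.05 there were 4 members in KO-labelled against WT (Asns, Atf3, Chac1 and Mthfd2, all lower), 2 in HET-labelled against WT (Asns and Mthfd2, both lower) and 0 in KO-labelled against HET-labelled tissue, where 1.92%, 2.73% and 0.579% of all genes passed at that level. These libraries varied much more than the organoids, with a biological coefficient of variation of 0.502, against 0.214 in organoids.

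Tissue WT 2 stood apart in most of the 39 genes. CPM of tissue, and of organoids set beside tissue, were scaled over all 24 libraries, so the organoid values there differ slightly from those above. Hspa5 had 1389 and 1265 CPM in KO-labelled, 1508 and 1105 CPM in HET-labelled and 1475 and 4839.8 CPM in WT tissue. Asns had 41.3 and 41.7 CPM, 50.01 and 42.8 CPM and 52.2 and 301 CPM in the same order of labels, and Chac1 2.41 and 3.26 CPM, 4.47 and 2.63 CPM and 2.97 and 36.7 CPM. Of the 39 members, 36 had their highest tissue value in WT 2, and Nupr1 was at 8.05 CPM there, against 653 to 911 CPM in the other 5 libraries. The share of all genes with their highest tissue value in WT 2 was not counted. WT 2 was the library with the highest sum of seminal vesicle markers, whose part in these values was not tested. HET 1, also high in these markers, had the lowest Derl3, at 2.48 CPM. Without WT 1, 2 members passed in HET-labelled against WT tissue, and that comparison then rested on WT 2 alone as the WT group.

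In tissue, 10 of 14 chaperones and 4 of 5 ERAD genes were higher than in organoids with DHT, while 12 of 15 Atf4 targets were lower. Of the 39, 16 were higher and 14 lower, where 41.7% of all genes tested were higher and 33.7% lower. With 75.3% of all genes called in this comparison, the number of calls is near the background, and the direction by role is what the values describe. The median change over all genes was 0.18, against 0.60 for the chaperones, 1.09 for ERAD, 0.14 for the sensors and factors, -0.99 for the stress targets and -1.28 for the supply genes.

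**Figure D5:**
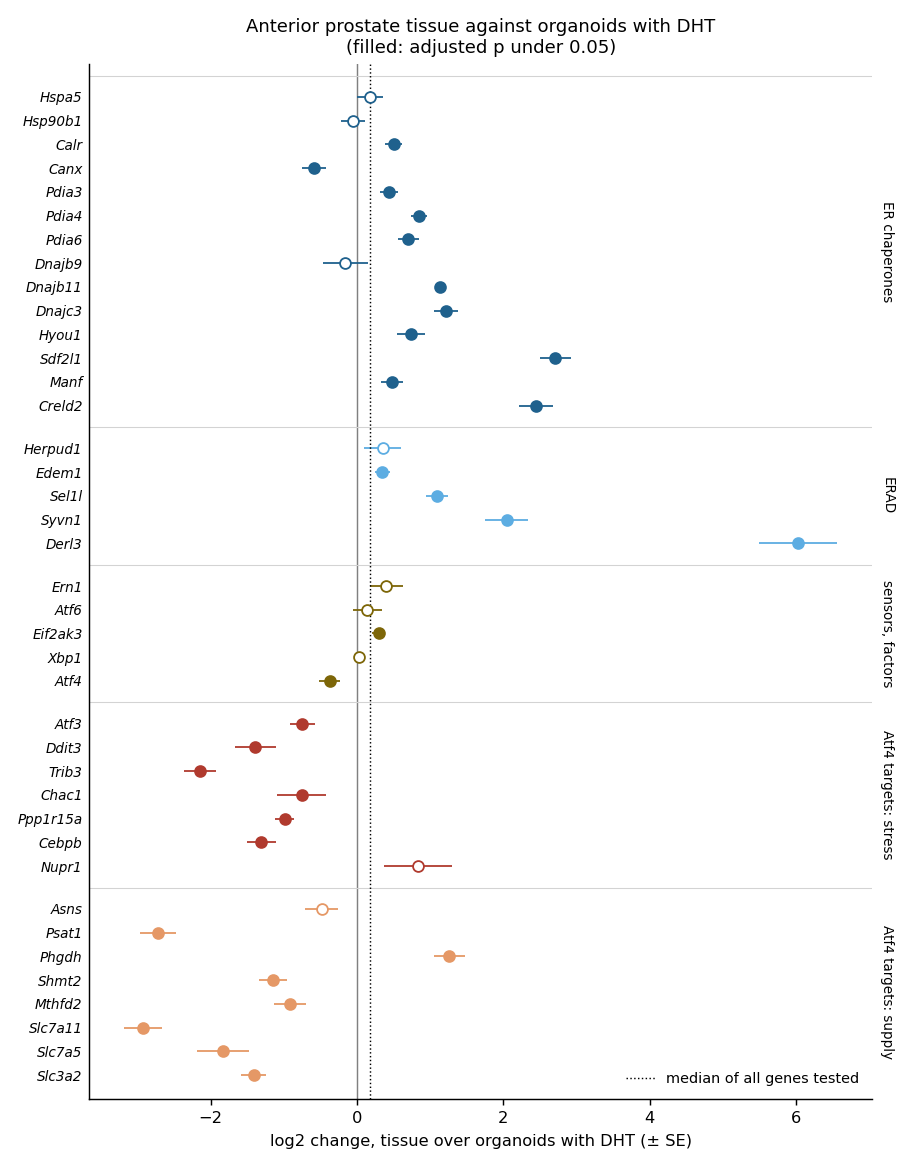
Log2 changes with standard errors of all 39 members in anterior prostate tissue (6 libraries) over organoids with DHT (9 libraries), ordered and coloured by role, filled where the adjusted p was under 0.05, with a dotted line at the median of all genes tested. ERAD genes lie right of 0 and all but 2 of the Atf4 targets lie left of it.

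The widest difference was that of Derl3. It had 11.3 and 58.0 CPM in KO-labelled, 2.48 and 22.8 CPM in HET-labelled and 21.2 and 119 CPM in WT tissue, against 0.295 to 0.670 CPM in the 9 organoid libraries with DHT. The lowest tissue library, HET 1, was still above every organoid library (6.03 ± 0.530 in log2 units, adjusted p 6.65e-09 by edgeR). Syvn1 had 107 and 233 CPM, 59.6 and 148 CPM and 67.6 and 390.2 CPM in the same tissue groups, against 32.3 to 48.7 CPM in organoids (2.05 ± 0.291 in log2 units, adjusted p 3.94e-06 by edgeR). Sel1l, its partner, had 134 and 169 CPM, 230.2 and 136 CPM and 147 and 413 CPM in tissue, against 88.0 to 101 CPM in organoids (1.09 ± 0.153 in log2 units, adjusted p 3.27e-06 by edgeR). All 3 were higher in every tissue library than in every organoid library with DHT. Edem1 overlapped, with 162 and 166 CPM, 148 and 148 CPM and 169 and 325 CPM in tissue, against 127 to 159 CPM in organoids (0.34 ± 0.10 in log2 units, adjusted p 0.00469 by edgeR), and Herpud1, at 0.35 (SE 0.255), did not pass (edgeR adjusted p = 0.216). Without tissue WT 2 Herpud1 turned and was lower (log2 -0.34, edgeR adjusted p = 0.0271).

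Among the chaperones, Sdf2l1 had 86.3 and 135 CPM in KO-labelled, 49.6 and 107 CPM in HET-labelled and 119 and 299 CPM in WT tissue, against 12.6 to 25.6 CPM in organoids with DHT (2.71 ± 0.213 in log2 units, adjusted p 1.33e-09 by edgeR). Creld2 had 107 and 216 CPM, 64.3 and 128 CPM and 127 and 589 CPM in the same tissue groups, against 24.7 to 44.1 CPM in organoids (2.45 ± 0.236 in log2 units, adjusted p 2.45e-08 by edgeR). Dnajb11, a BiP cochaperone, had 159 and 158 CPM, 136 and 148 CPM and 175 and 216 CPM in tissue, against 62.9 to 83.3 CPM in organoids (1.13 ± 0.0751 in log2 units, adjusted p 1.23e-10 by edgeR). None of the 3 overlapped with organoids. Pdia4, a disulfide isomerase, had 312 and 373 CPM, 385 and 316 CPM and 417 and 809 CPM in tissue, against 208 to 255 CPM in organoids (0.85 ± 0.107 in log2 units, adjusted p 9.20e-07 by edgeR), again without overlap. Dnajc3, a cochaperone that also inhibits eIF2 kinases, was higher by log2 1.21, the isomerases Pdia3 and Pdia6 by 0.44 and 0.70, and Calr, Hyou1 and Manf by 0.50, 0.74 and 0.48. Canx was lower (-0.59 ± 0.162 in log2 units, adjusted p 0.00293 by edgeR), and Hspa5, Hsp90b1 and Dnajb9 did not pass. Without tissue WT 2, which leaves WT 1 alone in its group, Dnajb9 changed by log2 -0.75 (SE 0.262) and Hspa5 by -0.20 (SE 0.108). Without WT 2 and HET 1 these changes were -0.96 (SE 0.269) and -0.28 (SE 0.104).

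The changes of the sensors and factors ran between -0.38 and 0.40. Eif2ak3 had 74.8 and 66.6 CPM in KO-labelled, 99.2 and 67.5 CPM in HET-labelled and 81.9 and 116 CPM in WT tissue, against 60.9 to 76.6 CPM in organoids with DHT, and was higher with overlap (0.29 ± 0.0872 in log2 units, adjusted p 0.00512 by edgeR). Atf4 was lower (-0.38 ± 0.149 in log2 units, adjusted p 0.0288 by edgeR). Atf4 had 155 and 159 CPM in KO-labelled, 92.8 and 149 CPM in HET-labelled and 147 and 372 CPM in WT tissue, against 175 to 275 CPM in organoids with DHT, so the highest value was that of tissue WT 2, while the other 5 tissue libraries lay below all 9 organoid libraries. Xbp1 had 184 to 246 CPM in tissue, against 185 to 217 CPM in organoids, a change of 0.03 (SE 0.0762), edgeR adjusted p = 0.725. Ern1 and Atf6 did not pass, at 0.40 (SE 0.223) and 0.14 (SE 0.204). Without WT 2 and HET 1 the change was log2 -0.38 (SE 0.0777) for Ern1 and -0.51 (SE 0.0635) for Atf6. Without WT 2 alone it was -0.13 (SE 0.140) and -0.38 (SE 0.0946) in the same order. Without WT 1, which leaves WT 2 alone in its group, Hspa5, Herpud1, Ern1 and Atf6 passed as higher and Asns as lower.

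The Atf4 targets ran the other way. Trib3 had 5.40 and 6.41 CPM in KO-labelled, 2.75 and 6.68 CPM in HET-labelled and 6.60 and 12.5 CPM in WT tissue, against 19.7 to 42.8 CPM in organoids with DHT (-2.14 ± 0.221 in log2 units, adjusted p 6.02e-08 by edgeR). Ppp1r15a had 21.5 and 21.6 CPM, 19.1 and 19.7 CPM and 22.4 and 46.3 CPM in tissue, against 33.4 to 70.1 CPM in organoids (-0.99 ± 0.126 in log2 units, adjusted p 9.84e-07 by edgeR). Cebpb had 10.8 and 19.9 CPM, 8.55 and 15.7 CPM and 7.86 and 7.90 CPM in tissue, against 21.1 to 34.4 CPM in organoids (-1.31 ± 0.198 in log2 units, adjusted p 8.31e-06 by edgeR). Trib3 and Cebpb were lower in every tissue library, and Ppp1r15a overlapped only through WT 2. Ddit3 was lower (-1.39 ± 0.281 in log2 units, adjusted p 0.000207 by edgeR), with 28.8 and 43.0 CPM, 12.7 and 26.6 CPM and 14.8 and 93.0 CPM in tissue, against 45.9 to 174 CPM in organoids. Atf3 and Chac1 were lower, with changes of -0.75 and -0.76. Nupr1 was at 0.84 (SE 0.463) and did not pass, with WT 2 apart from the other tissue libraries as described. Without WT 2 Nupr1 was higher, by log2 1.15 (edgeR adjusted p = 8.02e-08), and without WT 1 lower, by log2 -1.11 (edgeR adjusted p = 5.72e-07).

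Of the supply genes, Slc7a11 had 8.90 and 7.30 CPM in KO-labelled, 8.04 and 15.3 CPM in HET-labelled and 26.0 and 6.65 CPM in WT tissue, against 66.3 to 136 CPM in organoids with DHT (-2.92 ± 0.257 in log2 units, adjusted p 6.82e-09 by edgeR). Psat1 had 33.0 and 26.1 CPM, 36.7 and 23.2 CPM and 26.1 and 143 CPM in tissue, against 236 to 332 CPM in organoids (-2.72 ± 0.245 in log2 units, adjusted p 9.45e-09 by edgeR). Slc3a2 had 66.0 and 85.2 CPM, 72.4 and 80.9 CPM and 66.7 and 198 CPM in tissue, against 201 to 310.3 CPM in organoids (-1.41 ± 0.171 in log2 units, adjusted p 4.95e-07 by edgeR). All 3 were lower in every tissue library than in every organoid library with DHT. Phgdh went against its pathway partner Psat1, with 114 and 141 CPM, 60.6 and 143 CPM and 101 and 275 CPM in tissue, against 41.7 to 76.1 CPM in organoids (1.26 ± 0.207 in log2 units, adjusted p 2.15e-05 by edgeR). Shmt2 had 24.8 and 27.8 CPM, 30.0 and 30.4 CPM and 23.9 and 73.0 CPM in tissue, against 56.3 to 92.5 CPM in organoids, and overlapped through WT 2 (-1.15 ± 0.186 in log2 units, adjusted p 1.87e-05 by edgeR). Slc7a5 and Mthfd2 were lower, with changes of -1.83 and -0.92. Asns at -0.48 (SE 0.223) did not pass (edgeR adjusted p = 0.0565). Without tissue WT 2 the change of Asns was -1.08 (SE 0.0864, edgeR adjusted p = 2.51e-09).

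Markers of cells other than epithelium were higher in tissue for the stromal (10 of 10) and endothelial (6 of 6) lists, while 6 of 8 leukocyte markers were higher and Cd68 was lower (-3.00 ± 0.163 in log2 units, adjusted p 6.93e-12 by edgeR). All 10 stromal markers exceeded 1 CPM in each tissue library, against 1 to 3 in organoids, and summed to 745 to 3835 CPM. All 6 endothelial markers and 6 or 7 of 8 leukocyte markers also exceeded 1 CPM there. Of 6 markers of plasma cells, which are rich in ER, 3 or 4 did, against 1 in organoids, where Sdc1, which epithelium also expresses, was that marker. With Sdc1 included, the plasma cell markers summed to 47.7 to 256 CPM in tissue, against 1341 to 2768 CPM in organoids of both media. The 1341 CPM was that of WT library 1 with DHT. The epithelial markers differed too. Of the 6 basal markers 5 were lower in tissue, among them Krt5 by -3.78, Krt14 by -3.13 and Trp63 by -2.95 (log2 changes), and of the 10 luminal and secretory markers 7 were higher and 1 lower. Their sum was 5160.2 to 50567 CPM in tissue, with Tgm4, Pbsn, Msmb and Sbp higher in every tissue library than in every organoid library with DHT. The part of these cells in the differences was not tested. Without tissue WT 2 and HET 1, 15 members were higher and 19 lower, with 9 of 14 chaperones higher and 3 lower. Eif2ak3 and Hyou1 no longer passed, and the change was 5.72 for Derl3, 2.07 for Creld2, -3.42 for Psat1 and -2.88 for Slc7a5. It was -1.83 for Chac1, -1.49 for Mthfd2 and -0.90 for Canx, and 0.62 for Sel1l, 0.75 for Dnajc3, 0.26 for Manf and 0.15 for Edem1. Of the 30 calls, 25 held under all 24 alternatives, and those of Atf4, Chac1, Eif2ak3, Hyou1 and Manf did not.

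Other genes of these pathways were counted in the same fits, in lists also chosen with earlier results of these data known. Of 23 further Atf4 targets, 2 fell in KO-labelled against HET-labelled organoids with DHT and 2 without it, where 1.75% and 1.56% of all genes fell, and all 23 were below 0 in each medium, with medians of -0.39 and -0.30. Stc2, a secreted stress-induced glycoprotein gene, fell in both media (-0.56 ± 0.137 in log2 units, adjusted p 0.0330 by edgeR with DHT). The mitochondrial folate enzyme gene Aldh1l2 rose in HET-labelled against WT organoids in both media (0.64 ± 0.167 in log2 units, adjusted p 0.0283 by edgeR with DHT). Of 18 cytosolic aminoacyl-tRNA synthetase genes, which Atf4 also induces, 6 rose in HET-labelled against WT organoids without DHT, where 4.52% of all genes rose, and 1 with it, which at 1 of 18 is near the 4.03% of all genes. Aars, the alanyl-tRNA synthetase gene, had the lowest p among those without DHT (0.49 ± 0.0954 in log2 units, adjusted p 0.00383 by edgeR).

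Of 32 further ER folding and quality control genes, 1 fell in KO-labelled against HET-labelled organoids with DHT and 2 without it, the first near the share of all genes, with medians of -0.12 and -0.09. Pdia5, another disulfide isomerase gene, fell in both (-0.63 ± 0.125 in log2 units, adjusted p 0.00928 by edgeR with DHT). Uggt1, which tags unfolded glycoproteins for refolding, fell in KO-labelled against WT organoids without DHT (-0.40 ± 0.0737 in log2 units, adjusted p 0.00366 by edgeR) and with it (-0.28 ± 0.0737 in log2 units, adjusted p 0.0409 by edgeR). Eif2ak4, the kinase Gcn2 that senses uncharged tRNA, fell in HET-labelled against WT organoids with DHT (-0.33 ± 0.0851 in log2 units, adjusted p 0.0257 by edgeR) and without it (-0.34 ± 0.0843 in log2 units, adjusted p 0.0185 by edgeR). In tissue against organoids with DHT, 16 of the 32 ER genes were higher and 6 lower, 3 of the 23 Atf4 targets were higher and 18 lower, and 2 of the 18 synthetase genes were higher and 14 lower. With 41.7% of all genes higher and 33.7% lower, the share of ER genes that were higher was near that of all genes.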

How the data were processed

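RNA-seq of 18 organoid and 6 tissue libraries was analysed from the authors' deposited per-transcript tables. The authors made the estimated counts and the TPM values in them with Salmon (0.13.1 in the submitters' processing notes; layout per the file headers). Those notes name the human build hg38, while the transcript IDs are mouse Ensembl IDs. Trimming, strandedness and the index are not given in the sources used here.

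Estimated counts were summed per gene with GENCODE mouse release 21 and rounded. Of 116945 transcripts per file, 922 had no gene, holding 0.227% to 0.326% of reads. CPM of single genes used library sizes scaled by TMM. Marker sums, and counts of markers above 1 CPM, used total reads without TMM. Coordinates are those of the annotation (GRCm38). edgeR 4.0.16 in R 4.3.3 (filterByExpr, quasi-likelihood F-test, Benjamini-Hochberg over all genes, threshold 0.05) was fitted to organoids (15427 genes), tissue (16753 genes) and all libraries (17912 genes), giving 17 comparisons, and was tested on simulated data. Reads of overlapping genes cannot be told apart without strand. Library totals set the precision, and no interval for counting error is given.

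Alternatives were the DESeq2 test (1.42.0), edgeR with size factors of DESeq2, other low-count filters, transcript length offsets, the mitochondrial share as a covariate, fits restricted to the groups compared, a replicate block, and leaving out libraries. Leaving out the 3 smallest organoid libraries, or tissue WT 2 and HET 1, was added after seeing the data, as was a replicate block in the fit of KO-labelled and HET-labelled organoids without DHT, whose same-numbered libraries deviated together in 3 of 3 pairs.

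The members and lists were chosen with earlier results of these data known. Values per library were given for the 12 members called in the most organoid comparisons and for up to 4 called members per role in tissue against organoids. Those of Atf4, Atf6, Dnajb9 and Slc7a5 in organoids and of Hspa5, Asns, Chac1, Nupr1 and Phgdh in tissue were chosen after their values were seen. Promoter windows were read from RefSeq (GRCm38.p6).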

Additional observations from a re-analysis of the deposited data

How the results depend on the processing

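None of the 74 called member results changed direction under the alternatives run, while 269 of the 589 not called took the other sign in at least 1 of them, and 7 of these passed the test there: Atf6, Ern1, Herpud1, Hspa5 and Nupr1 in tissue against organoids, when 1 or 2 tissue libraries were left out, and Dnajb9 and Pdia3 for withdrawal on average, with the mitochondrial covariate. In tissue against organoids the balance of 16 higher and 14 lower turned to 16 and 18 without WT 2 and to 15 and 19 without WT 2 and HET 1. The values that follow are numbers of the 39 members called, where they differed from the count given in the report by more than 1.5 times, and the cause was not tested. For DHT withdrawal, DESeq2 called 3 in KO-labelled, 3 in HET-labelled and 3 in WT organoids, and the mitochondrial covariate gave 1 in KO-labelled, 1 in WT and 15 on average (2 higher and 13 lower). With that covariate 12.3% of all genes were higher and 8.89% lower on average. The shares were 1.09% and 1.93% in KO-labelled and 2.37% and 2.29% in WT organoids. In KO-labelled against HET-labelled organoids with DHT, DESeq2 called 20, the mitochondrial covariate 27, the restricted fit 25 and the fit without the 3 smallest libraries 21. Without DHT these were 17, 27, 0 and 4. In the restricted fit 3.79% of all genes rose and 4.78% fell with DHT, and 0.0617% and 0.123% without it. In KO-labelled against WT organoids with DHT, DESeq2 called 5, no low-count filter 0, length offsets 2, the mitochondrial covariate 7, the restricted fit 4 and the fit without the 3 smallest libraries 2, and without DHT the mitochondrial covariate gave 8 and the restricted fit 0. Of all genes, that covariate called 5.03% higher and 3.92% lower with DHT, and 5.43% and 5.29% without it. The restricted fit called 3.61% higher and 2.61% lower with DHT, and 0.94% and 0.439% without it. In HET-labelled against WT organoids with DHT the mitochondrial covariate gave 15, and without DHT no filter gave 3, the mitochondrial covariate 11, the restricted fit 1 and the fit without the 3 smallest libraries 8. With the covariate 9.17% of all genes rose and 8.5% fell with DHT, and 7.73% and 7.05% without it. Shares of all genes under DESeq2, other filters, length offsets and left-out libraries are not given. Leaving out 1 library gave 5 to 9 in KO-labelled against HET-labelled organoids in each medium, 0 to 1 with DHT and 3 to 5 without DHT in KO-labelled against WT, 3 to 5 with DHT and 2 to 5 without DHT in HET-labelled against WT, 0 to 1 for withdrawal in WT, 4 to 7 for withdrawal on average, 0 to 2 for HET-labelled against WT tissue (2 without WT 1) and 28 to 35 for tissue against organoids. With a replicate block the counts were 15 and 10 in KO-labelled against HET-labelled organoids with and without DHT, 7 for withdrawal on average and 29 for tissue against organoids, and with the block in the fit of all organoids no count moved by more than 1.5 times. Deviations of same-numbered organoid libraries correlated between -0.778 and 0.870 (median 0.078, over 0.1 in 21 of 45 pairs), so the numbers were not taken to pair the libraries as a whole. Of the comparisons made, KO-labelled against HET-labelled organoids without DHT had all 3 pairs over 0.1 (0.422 to 0.870), and a replicate block in the fit restricted to these groups, added after seeing the data, called 33, against 0 without the block. The 6 tissue libraries left 3 residual degrees of freedom, and the smallest organoid library held 11965815 reads.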

Other observations

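The cytosolic and mitochondrial stress programmes were also counted in the same edgeR fits. Of 11 cytosolic heat shock genes, 1 fell in KO-labelled against HET-labelled organoids with DHT, where 1.75% of all genes fell. On average without DHT 1 of them fell too, where 2.4% of all genes did. Both times it was Dnajb1, a cochaperone of Hsp70. Dnajb1 had 90.5, 116 and 114 CPM in KO-labelled, 158, 193 and 173 CPM in HET-labelled and 111, 142 and 131 CPM in WT organoids with DHT. The HET-labelled libraries were the highest, without overlap with the KO-labelled ones. Dnajb1 without DHT had 59.8, 91.5 and 91.5 CPM, 88.1, 108 and 119 CPM and 134, 106 and 102 CPM in the same order of labels. Its change was -0.72 ± 0.171 in log2 units, adjusted p 0.0280 by edgeR in KO-labelled against HET-labelled organoids with DHT, and -0.43 ± 0.0985 in log2 units, adjusted p 0.0156 by edgeR without over with DHT on average. Of 10 Nrf2 targets, which serve the oxidative stress response, Nqo1 fell on average without DHT (-0.36 ± 0.0823 in log2 units, adjusted p 0.0153 by edgeR), where 2.4% of all genes fell. Hmox1 fell in KO-labelled against WT organoids without DHT (-0.56 ± 0.138 in log2 units, adjusted p 0.0271 by edgeR), where 1.98% did.

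Ero1l, the oxidase that reforms disulfide bonds in Pdi, and a hypoxia-induced gene, had 66.8 and 46.1 CPM in KO-labelled, 70.2 and 55.6 CPM in HET-labelled and 89.0 and 51.0 CPM in WT tissue. In organoids with DHT it had 5535, 5956 and 4965 CPM, 5911, 5516 and 7624 CPM and 6619, 4967 and 5279 CPM in the same order of labels (-6.53 ± 0.226 in log2 units, adjusted p 1.43e-14 by edgeR for tissue over organoids). No tissue library came near the organoid values. Nqo1 ran the same way, with 2.15 and 1.70 CPM in KO-labelled, 0.923 and 0.814 CPM in HET-labelled and 1.35 and 2.38 CPM in WT tissue (-5.02 ± 0.151 in log2 units, adjusted p 2.66e-15 by edgeR). In tissue against organoids with DHT, 0 of 10 Nrf2 targets were higher and 9 lower, and 1 of 9 mitochondrial chaperone and protease genes was higher and 7 lower, where 41.7% and 33.7% of all genes were. Of the synthetase genes, Wars and Hars were the 2 that were higher in tissue, Wars by 3.46 ± 0.180 in log2 units, adjusted p 4.03e-12 by edgeR and Hars by 0.61 ± 0.0947 in log2 units, adjusted p 1.04e-05 by edgeR. Dnajc10, a reductase of ERAD substrates, was higher in tissue (2.87 ± 0.104 in log2 units, adjusted p 2.58e-14 by edgeR), as was the factor gene Creb3l1 (5.35 ± 0.305 in log2 units, adjusted p 1.43e-11 by edgeR).

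The annotation holds 4 transcripts of Xbp1. Xbp1-201 took 83.8% to 89.2% of the gene's TPM in the 9 organoid libraries without DHT, 79.7% to 86.2% in the 9 with DHT and 81.2% to 87.6% in tissue. The form spliced by Ire1 is not among the 4, and its splicing was not analysed here.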
